A study of Mus musculus with 9 samples.

Results

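The proteasome genes described here are the genes of the deposited expression table whose symbols start with Psma, Psmb, Psmc, Psmd, Psme, Psmf or Psmg followed by a number. This rule found 49 of the 22178 listed genes. Of these, 48 encode subunits, activators, inhibitors or assembly chaperones of the proteasome, and the other, Psmc3ip, is a meiotic recombination factor that only shares the letters. Genes with a mean of at least 1 TPM (transcript abundance scaled to a fixed library total) over the 9 libraries were tested, which left 48 of the 49 and 11099 of all genes. The gene that did not pass was Psma8.

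The study compared the transcriptomes of 3 kinds of B cell. RNA was sequenced from mouse B cells in 3 groups of 3 libraries, all on a backcrossed C57BL/6 background. B2B1 cells were peritoneal, from the strain labelled B1-8VH12/Vk4, and were isolated about 30 days after induction of a BCR (B cell receptor) switch. B1 cells, also peritoneal and of that strain label, are B cells found mainly in body cavities. B2 cells, the conventional B cells, were splenic, from the strain labelled VH12B1-8/Vk4. In both comparisons with B2, the tissue, the strain label and the cell type change together and cannot be told apart. The labels give no age. Nor do they say whether each library is a mouse of its own, and the spread behind the p-values may therefore be technical.

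The proteasome is the protease that degrades proteins tagged with ubiquitin. Its barrel-shaped core has outer rings of alpha subunits and inner rings of beta subunits, and the catalytic sites lie inside. A regulatory particle, made of a base and a lid, recognises, unfolds and feeds the substrate. In lymphocytes and under interferon, Psmb8, Psmb9 and Psmb10 take the places of the constitutive catalytic subunits Psmb5, Psmb6 and Psmb7. The resulting immunoproteasome, often capped by the activator made of Psme1 and Psme2, yields peptides suited to MHC class I molecules.

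Psmb8, Psmb9, Psme1 and Psme2 were among the 5 genes called higher in B2B1 than in B1 under every alternative run. Psmb9 (chr17:34181987-34187764, minus strand) and Psmb8 (chr17:34197721-34201454, plus strand) lie in the MHC region of GRCm38. Psme1 (chr14:55578123-55581529, plus strand) and Psme2 (chr14:55587441-55591113, minus strand) lie near each other on chromosome 14. All are protein-coding in the GENCODE M21 annotation. Their promoters are shown because these 4 genes were high together in B2B1 cells, and that of Psmb10, the other of the 5, is not. Each sequence runs from 250 bases before to 50 after the RefSeq start on GRCm38.p6, 5′ to 3′ on the strand of the gene. Capitals mark matches to the motifs searched.
Psmb8: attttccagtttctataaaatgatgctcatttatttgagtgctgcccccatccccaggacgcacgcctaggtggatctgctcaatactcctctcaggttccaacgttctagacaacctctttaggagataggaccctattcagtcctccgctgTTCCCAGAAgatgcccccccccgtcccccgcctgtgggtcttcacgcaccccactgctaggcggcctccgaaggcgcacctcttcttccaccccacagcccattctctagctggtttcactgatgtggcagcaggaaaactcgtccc
Psmb9: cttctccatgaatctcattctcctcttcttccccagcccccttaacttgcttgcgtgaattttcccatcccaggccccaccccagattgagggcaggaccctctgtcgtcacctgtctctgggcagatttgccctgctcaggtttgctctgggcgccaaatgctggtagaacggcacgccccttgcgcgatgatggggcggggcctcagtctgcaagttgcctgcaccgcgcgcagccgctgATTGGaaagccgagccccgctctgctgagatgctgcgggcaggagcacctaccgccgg
Psme1: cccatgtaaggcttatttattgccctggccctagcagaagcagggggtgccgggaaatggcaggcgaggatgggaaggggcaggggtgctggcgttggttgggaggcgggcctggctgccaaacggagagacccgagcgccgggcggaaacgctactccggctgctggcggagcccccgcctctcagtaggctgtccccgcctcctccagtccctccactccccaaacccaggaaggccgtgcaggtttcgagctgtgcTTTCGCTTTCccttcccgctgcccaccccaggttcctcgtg
Psme2: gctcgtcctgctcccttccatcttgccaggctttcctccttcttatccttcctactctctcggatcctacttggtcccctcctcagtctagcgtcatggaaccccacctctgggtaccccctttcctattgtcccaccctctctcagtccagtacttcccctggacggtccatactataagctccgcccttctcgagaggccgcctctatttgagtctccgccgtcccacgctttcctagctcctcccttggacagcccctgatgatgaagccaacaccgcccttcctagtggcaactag
These windows are chr17:34197945-34198244 for Psmb8, chr17:34187281-34187580 for Psmb9, chr14:55578244-55578543 for Psme1 and chr14:55591052-55591351 for Psme2. The motifs were searched on both strands. The letters GAAA, any 2 bases and GAAA again, like the interferon-stimulated response element, were in 3.44% of 32851 RefSeq promoters and in 5 of the 41 proteasome genes with a promoter, Psme1 among them. TTCNNNGAA, like the gamma-activated site of interferon-responsive genes, was in 8.3% of all promoters and in 3 of the 41, Psmb8 among them. The other genes with the first motif were Psmd4, Psmd9, Psmb3 and Psmg4, and with the second Psmd2 and Psmg1. None of these was called in B2B1 against B1, where 19.0% of all genes were called. Psmg4 and Psmg1 were called higher in B2B1 than in B2, as were 21.0% of all genes. Psmg4 was also called higher in B1 than in B2, as were 18.0% of all genes. The others were called in neither comparison with B2. CCAAT, the letters bound by NF-Y, was in 37.4% of all promoters and in 15 of the 41. The match in Psmb9 is on the opposite strand and reads ATTGG. TGACNNNGC, a partial antioxidant response element, was in 12.4% of all promoters and in 6 of the 41, and none of the 4 motifs was in the Psme2 window. A match is a description of letters, not a binding site.

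All 9 libraries expressed the B cell markers Cd79a, Cd79b, Ms4a1, Pax5, Cd22 and Blk. Cd79a, a chain of the receptor complex, was between 2676 and 3029.6 TPM in B2B1, 2393 and 3098 TPM in B1 and 2785 and 2935 TPM in B2. The macrophage list, with 6 of 8 genes in the table, summed to between 152 and 353 TPM in B2B1, 118 and 163 TPM in B1 and 3.07 and 4.93 TPM in B2. One of these 6 genes, Itgam, is also a B-1 cell marker, and Csf1r was at most 2.13 TPM in any library. Emr1, a macrophage surface receptor, had 52.0, 39.9 and 40.1 TPM in B2B1 libraries, 19.7, 13.6 and 20.9 TPM in B1 libraries, and 0.432, 0.272 and 0.448 TPM in B2 libraries. Its groups did not overlap, with B2B1 at the top, and B2B1 was also the top group for Psmb9 and Psme2. Lyz2 reached 181 TPM in B2B1 library 1. A list of 14 cell cycle genes summed to between 284 and 408 TPM in B2B1, 212 and 397 TPM in B1 and 242 and 265 TPM in B2. The proliferation marker Mki67 was highest in B2B1 library 1 with 28.2 TPM and in B1 library 2 with 19.4 TPM. The part of these markers in the proteasome differences was not tested. Some results that change without these 2 libraries are also given without them.

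In B2B1 cells against B2 cells, proteasome genes were more often higher than lower, while most called genes of the transcriptome were lower. These are bulk RNA samples, so fewer cells of a type and less RNA per cell cannot be told apart. Of the 48 tested genes, 14 were higher, 7 were lower and 27 did not pass an adjusted p of 0.05 in limma. The 29.2% called higher compares with 21.0% of all 11099 genes, and the 14.6% called lower with 42.0% of all genes. Called in either direction were 43.8% of the proteasome genes and 63.0% of all genes. Their median log2 fold change was 0.04, against −0.19 over all genes tested. For 18 genes every B2B1 library lay above every B2 library, and for 12 every one lay below. Groups did not overlap for 72.2% of all genes. Separation upward was found for 24.5% of all genes, and downward for 47.7%.

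In B1 cells against B2 cells, 4 proteasome genes were higher (Psmb1, Psmd8, Psmd14 and Psmg4), 14 were lower and 30 did not pass. The 8.33% called higher compares with 18.0% of all genes, and the 29.2% called lower with 33.9%. In either direction 37.5% were called, against 51.9% of all genes. The median log2 fold change of −0.11 was near the −0.14 over all genes. For 4 genes every B1 library lay above every B2 library, and for 21 every one lay below. Among all genes the groups did not overlap for 61.7%, with B1 above for 21.9% and below for 39.8%.

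In B2B1 cells against B1 cells, the 2 groups from the same cavity, 9 proteasome genes were higher, Psme4 alone was lower and 38 did not pass. The total of 20.8% called was near the 19.0% of all genes. The directions were not: 18.8% were called higher, against 6.93% of all genes, and 2.08% lower, against 12.1%. The median was 0.16, against −0.06 over all genes. For 16 genes every B2B1 library lay above every B1 library, against 12.0% of all genes, and for Psme4 every one lay below, against 23.7%. In either direction 35.7% of all genes did not overlap.

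Rescaling the libraries removed most lower calls and added higher ones. After median-of-ratios scaling, the median of all genes moved to 0.01 or 0.02 in each comparison. On that scale 29 proteasome genes were higher and 0 lower in B2B1 against B2, where 31.5% of all genes were higher and 27.3% lower. In B1 against B2, 8 were higher and 1 lower (25.6% and 22.2% of all genes). In B2B1 against B1, 15 were higher and 1 lower (9.79% and 8.05% of all genes). With quantile normalization the same counts were 24 and 1, 6 and 3, and 11 and 1. The shares of all genes were 26.8% and 31.9%, 22.3% and 25.8%, and 8.22% and 8.86%. Under each of 19 alternatives, 11 genes stayed higher in B2B1 than in B2: Psmb8, Psmb9, Psme1, Psme2, Psmb1, Psmb7, Psma4, Psmd8, Psmd10, Psmd14 and Psmg4. The 4 genes higher in B1 than in B2 also kept their call under all 19. In B2B1 against B1 the 5 that did were Psmb8, Psmb9, Psmb10, Psme1 and Psme2. No lower call held under all 19. The share of all genes that kept a call under all 19 was not computed, so these counts have no background beside them.

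**Figure D1:**
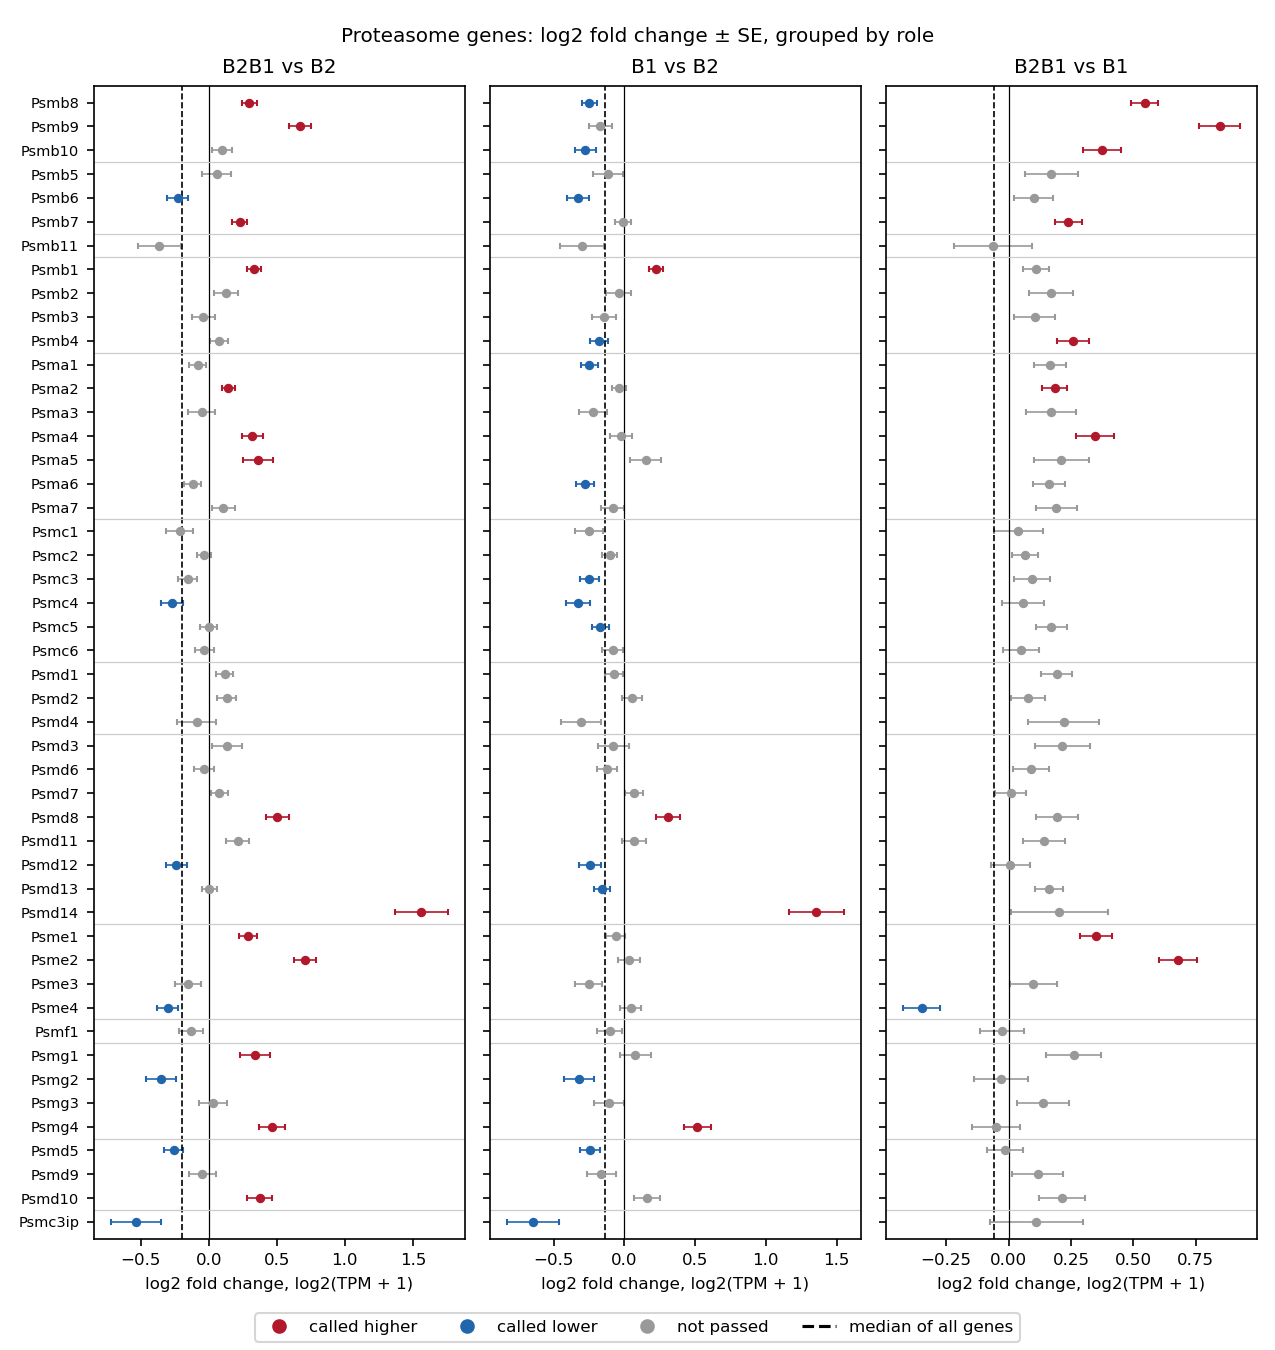
Log2 fold change on log2(TPM + 1) with its standard error (x axes, different ranges) for the 48 tested genes, ordered by role, in B2B1 against B2, B1 against B2 and B2B1 against B1. Red and blue points passed an adjusted p of 0.05, grey points did not, and the dashed line is the median of all genes. Psmd14 stands far to the right in both comparisons with B2, and Psmb9, Psme2 and Psmb8 lead the comparison of B2B1 with B1.

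Of the immunoproteasome subunits, Psmb8 and Psmb9 were higher in B2B1 cells than in both other groups, and Psmb10 was higher than in B1. Psmb8, which supplies the chymotrypsin-like site, had 462, 466 and 481 TPM in B2B1 libraries, 328, 337 and 301 TPM in B1 libraries, and 379, 376 and 390.3 TPM in B2 libraries. The 3 groups did not overlap, with B2B1 at the top and B1 at the bottom. The log2 fold change was 0.30 ± 0.06 (SE) for B2B1 against B2 (limma, adjusted p = 0.00133) and 0.54 ± 0.06 for B2B1 against B1 (adjusted p = 0.000409). B1 was lower than B2 (−0.25 ± 0.06, adjusted p = 0.00482), and median-of-ratios scaling ended that call (−0.09, adjusted p = 0.185).

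Psmb9, which replaces the caspase-like subunit Psmb6, had 475, 424 and 512 TPM in B2B1 libraries, 268, 274 and 241 TPM in B1 libraries, and 289, 311 and 283 TPM in B2 libraries. Every B2B1 library was above every library of the other groups. This was the largest change among the 6 paired catalytic subunits in both comparisons of B2B1, with a log2 fold change of 0.67 ± 0.08 against B2 (limma, adjusted p = 0.000107) and 0.85 ± 0.08 against B1 (adjusted p = 0.000323). B1 against B2 gave −0.17 ± 0.08 and did not pass (adjusted p = 0.107), although each B1 library lay below each B2 library. Exons of Psmb9 and Tap1 share 212 bases on opposite strands, and those of Psmb8 share 498 bases with the antisense gene Gm20496. Strand use in counting is not given in the sources used here, so reads there cannot be told apart.

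Psmb10, which supplies the trypsin-like site, had 163, 161 and 187 TPM in B2B1 libraries, 126, 141 and 127 TPM in B1 libraries, and 162, 151 and 165 TPM in B2 libraries. B2B1 overlapped B2 and lay above B1. On the log2 scale the difference was 0.37 ± 0.08 for B2B1 against B1 (limma, adjusted p = 0.0105), and 0.10 ± 0.08 for B2B1 against B2, which did not pass (adjusted p = 0.287). With both rescalings Psmb10 was called higher in B2B1 than in B2 (0.33 and adjusted p = 0.00423 with median-of-ratios scaling). B1 was lower than B2 (−0.28 ± 0.08, adjusted p = 0.0136), which ended with median-of-ratios scaling (−0.12, adjusted p = 0.204) and without B2 library 3 (−0.25, adjusted p = 0.0504).

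Without B2B1 library 1 and B1 library 2, which had the most cell cycle RNA, the differences of the immunoproteasome subunits were of similar size. Psmb8 gave 0.31 and Psmb9 gave 0.66 for B2B1 against B2 in limma. Against B1 the values were 0.59 for Psmb8, 0.87 for Psmb9 and 0.46 for Psmb10, and all 5 passed.

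**Figure D2:**
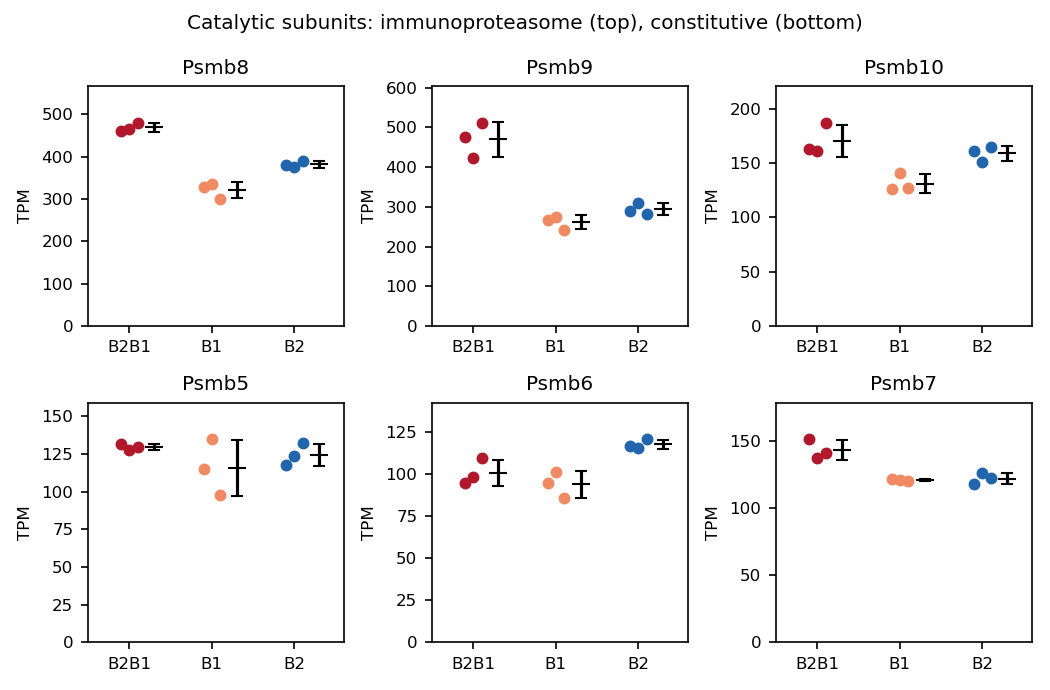
TPM of the catalytic subunits (y axes from 0) in each library of B2B1, B1 and B2, with the mean and SD of 3 libraries beside the points. Psmb8 and Psmb9 lie highest in B2B1, Psmb10 in B2B1 and B2, and the constitutive subunits in the lower row differ less.

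Of the constitutive catalytic subunits, Psmb7 was higher and Psmb6 lower in B2B1 than in B2. Psmb5, the chymotrypsin-like subunit of the ordinary core, averaged 129 ± 1.99 TPM in B2B1, 116 ± 18.7 TPM in B1 and 124 ± 7.35 TPM in B2 (SD, n = 3 each). It passed in none of the 3 comparisons with all libraries on the deposited scale. Median-of-ratios scaling called it higher in B2B1 than in B2 (0.28, limma, adjusted p = 0.0324). Without B1 library 2 it was lower in B1 than in B2 (−0.23, adjusted p = 0.0426). B2B1 was then higher than B1 (0.29, adjusted p = 0.04). Psmb7, the trypsin-like subunit, had 152, 138 and 141 TPM in B2B1 libraries, 122, 121 and 121 TPM in B1 libraries, and 118, 126 and 123 TPM in B2 libraries. It was higher in B2B1 than in B2 (0.23 ± 0.05 in log2, limma, adjusted p = 0.00544) and than in B1 (0.24 ± 0.05, adjusted p = 0.0173). The call against B1 was lost without B2B1 library 1 (0.20, adjusted p = 0.0513).

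Psmb6, the caspase-like subunit, had 94.8, 98.0 and 109 TPM in B2B1 libraries, 94.7, 101 and 85.7 TPM in B1 libraries, and 117, 115 and 121 TPM in B2 libraries. The B2 libraries were above all others. It was lower in B1 than in B2 (−0.33 ± 0.08, limma, adjusted p = 0.00663), which median-of-ratios scaling ended (−0.17, adjusted p = 0.0824). It was also lower in B2B1 than in B2 (−0.23 ± 0.08, adjusted p = 0.0293). That call ended with both rescalings, with median-of-ratios scaling at 0.00113 (adjusted p = 0.99), and when B2B1 library 1 or 2 or any B2 library was left out (adjusted p of 0.0554 to 0.0936).

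A ratio of genes within a library does not change when the whole library is multiplied by a single factor. The share of the catalytic RNA that came from the immunoproteasome was therefore also computed. Psmb8, Psmb9 and Psmb10 made up 74.4%, 74.3% and 75.7% of the summed TPM of the 6 paired catalytic subunits in B2B1 libraries. The same share was 68.5%, 67.7% and 68.8% in B1 libraries and 70.2%, 69.6% and 69.1% in B2 libraries. The groups did not overlap, and averaged 74.8 ± 0.735% in B2B1, 68.4 ± 0.544% in B1 and 69.6 ± 0.572% in B2 (SD, n = 3 each). No test was made, since 3 libraries against 3 cannot go below 0.1 in an exact permutation test. Psmb5 has a copy, Gm3375, that matches it at 98.9% over 796 bases. The copy Psmb6-ps2 matches Psmb6 at 92.1% over 718 bases. Some reads could be shared with these copies, which would affect the share.

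The pair of Psmb9 and Psmb6 set B2B1 apart most. Psmb9 made up 82.3 ± 1.08% of that pair in B2B1, 73.5 ± 0.507% in B1 and 71.4 ± 1.43% in B2. Psmb8 made up 78.4 ± 0.476% of its pair with Psmb5 in B2B1, 73.7 ± 2.10% in B1 and 75.5 ± 0.837% in B2. The share of Psmb10 in its pair with Psmb7 was 54.3 ± 2.62% in B2B1, 52.0 ± 1.55% in B1 and 56.6 ± 1.79% in B2 (SD, n = 3 each), so that the groups overlapped. In TPM, the 3 immunoproteasome subunits summed to 1111 ± 65.3 in B2B1, 714 ± 41.4 in B1 and 835 ± 4.79 in B2. The 3 constitutive ones summed to 373 ± 9.18 in B2B1, 331 ± 26.9 in B1 and 364 ± 11.7 in B2.

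**Figure D3:**
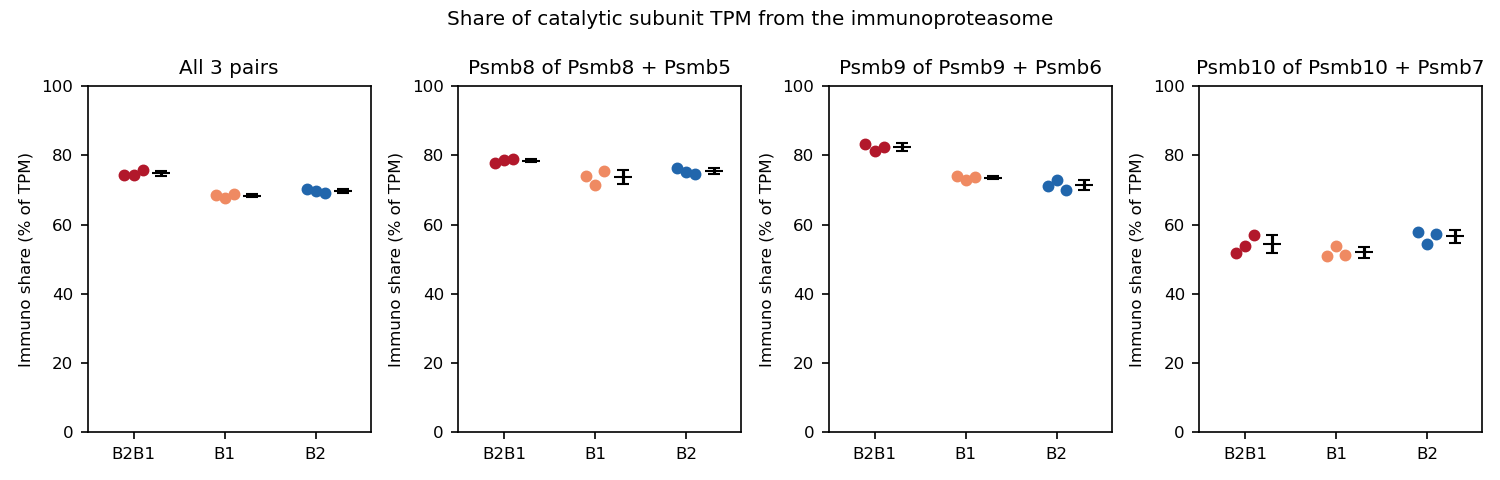
Percent of catalytic subunit TPM that came from the immunoproteasome gene (y axes from 0 to 100), for all 3 pairs together and for each pair, per library with the mean and SD of 3. The B2B1 libraries lie above the others in all panels but that of Psmb10, where groups overlap.

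The tissue-restricted core subunits were close to absent. Psmb11, the catalytic subunit of thymic cortical epithelium, averaged 1.28 ± 0.201 TPM in B2B1, 1.38 ± 0.174 TPM in B1 and 1.95 ± 0.469 TPM in B2 (SD, n = 3 each), and passed in none of the comparisons. Psma8, the alpha subunit of male germ cells, reached at most 0.430 TPM and was listed at 0 in B2 library 3.

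Among the 4 structural beta subunits, which carry no active site, Psmb1 stood out. It had 299, 302 and 308 TPM in B2B1 libraries, 295, 275 and 273 TPM in B1 libraries, and 238, 247 and 236 TPM in B2 libraries. Both peritoneal groups lay above B2. It was higher in B2B1 (log2 fold change 0.33 ± 0.05, limma, adjusted p = 0.0004) and in B1 (0.22 ± 0.05, adjusted p = 0.00528) than in B2. Psmb4 averaged 229 ± 15.2 TPM in B2B1, 191 ± 10.4 TPM in B1 and 217 ± 2.95 TPM in B2. It was higher in B2B1 than in B1 (0.26 ± 0.06, adjusted p = 0.0246), which was lost without B2B1 library 2 or 3 or B1 library 1 or 3 (adjusted p of 0.0561 to 0.0766). It was lower in B1 than in B2 (−0.18 ± 0.06, adjusted p = 0.0406), which was lost with both rescalings (adjusted p = 0.78 and 0.536) and when B2B1 library 2, B1 library 1 or 3 or any B2 library was left out (adjusted p of 0.0516 to 0.13). With all libraries on the deposited scale, Psmb2 and Psmb3 passed in none of the comparisons, with log2 fold changes between −0.14 and 0.17. Both rescalings called Psmb2 higher in B2B1 than in B2 (0.36 and adjusted p = 0.00439 with median-of-ratios scaling). Without B1 library 2, Psmb2 was higher in B2B1 than in B1 (0.25, adjusted p = 0.0478).

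Of the 7 alpha subunits, which form the gate of the core, 3 were higher and 0 lower in B2B1 than in B2. The shares were 42.9% and 0%, against 21.0% and 42.0% of all genes. Against B1, 2 were higher (28.6%, against 6.93% of all genes). In B1 against B2, 28.6% were lower, against 33.9% of all genes. Psma4 had 173, 165 and 154 TPM in B2B1 libraries, 132, 139 and 116 TPM in B1 libraries, and 129.5, 137 and 127 TPM in B2 libraries. B2B1 lay above both other groups, which overlapped. The log2 fold change was 0.32 ± 0.08 against B2 (limma, adjusted p = 0.00529) and 0.35 ± 0.08 against B1 (adjusted p = 0.0152). Psma2 was higher by a smaller margin, 0.14 ± 0.05 against B2 (adjusted p = 0.027) and 0.18 ± 0.05 against B1 (adjusted p = 0.0298). These 2 calls were lost without B2B1 library 1 or 3 or B2 library 1, 2 or 3, and the call against B1 also without B1 library 1 or 3 (adjusted p of 0.051 to 0.0869). Psma5 was higher in B2B1 than in B2 (0.36 ± 0.11, adjusted p = 0.018), which was lost without B2B1 library 3 or B2 library 1 or 3 (adjusted p of 0.0525 to 0.0644). Without B2B1 library 1 and B1 library 2, Psma5 was also higher in B2B1 than in B1 (0.37, adjusted p = 0.0378).

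In B1 against B2, Psma6 (−0.28 ± 0.06, limma, adjusted p = 0.00564) and Psma1 (−0.25 ± 0.06, adjusted p = 0.00973) were lower. Both were lost with either rescaling, where Psma6 gave −0.12 (adjusted p = 0.148) and Psma1 −0.09 (adjusted p = 0.229) with median-of-ratios scaling. Psma3 did not pass in any comparison with all libraries. Without B2B1 library 1 and B1 library 2 it was lower in B1 than in B2 (−0.32, adjusted p = 0.0193). By level, Psma2 was the highest alpha subunit in each group and Psma3 the lowest, with means of 191 and 70.6 TPM in B2B1, 168 and 62.9 TPM in B1, and 172 and 73.2 TPM in B2. Taking the 14 constitutive core genes together, 5 were higher and 1 lower in B2B1 than in B2. The shares were 35.7% and 7.14%, against 21.0% and 42.0% of all genes. In B1 against B2, 1 was higher and 4 lower (7.14% and 28.6%, against 18.0% and 33.9%). In B2B1 against B1, 4 were higher and 0 lower (28.6% and 0%, against 6.93% and 12.1%).

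On the deposited scale, the base of the regulatory particle did not follow the immunoproteasome. Of its 6 ATPases, which unfold substrates, 0 were higher and 1 (Psmc4) was lower in B2B1 than in B2. The shares were 0% and 16.7%, against 21.0% and 42.0% of all genes. With all libraries, none of the 6 passed in B2B1 against B1, where 2 had groups that did not overlap. Of all genes, 19.0% were called there and 35.7% did not overlap. In B1 against B2, Psmc3, Psmc4 and Psmc5 were lower (50% of the ATPases, against 33.9% of all genes). Psmc4 had 75.6, 80.3 and 82.0 TPM in B2B1 libraries, 76.9, 82.9 and 69.0 TPM in B1 libraries, and 89.6, 93.7 and 104 TPM in B2 libraries. B2 lay above both peritoneal groups. On the log2 scale the difference was −0.27 ± 0.08 for B2B1 against B2 (limma, adjusted p = 0.0193) and −0.33 ± 0.08 for B1 against B2 (adjusted p = 0.00951). Both were lost on rescaling, at −0.04 (adjusted p = 0.68) and −0.17 (adjusted p = 0.125) with median-of-ratios factors, and the first also without B2B1 library 1 (adjusted p = 0.0617) or B2 library 3 (adjusted p = 0.0745).

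Psmc3 (−0.25 ± 0.07, limma, adjusted p = 0.0163) and Psmc5 (−0.17 ± 0.06, adjusted p = 0.0469) were lower in B1 than in B2. Psmc3 was lost with either rescaling and without B1 library 3 (adjusted p = 0.0552) or B2 library 3 (adjusted p = 0.0646). Psmc5 was lost with either rescaling, when any B2B1 library was left out, without B1 library 1 or 3 and without B2 library 1 or 3 (adjusted p of 0.0592 to 0.865). Psmc1 gave −0.21 ± 0.10 for B2B1 against B2 (adjusted p = 0.0835) and −0.25 ± 0.10 for B1 against B2 (adjusted p = 0.0565). Without B2B1 library 1 and B1 library 2 both were called lower (−0.28, adjusted p = 0.0398, and −0.29, adjusted p = 0.0381). Psmc2 did not pass on the deposited scale (−0.04 for B2B1 against B2, adjusted p = 0.554), while median-of-ratios scaling called it higher (0.19, adjusted p = 0.0117). The base scaffolds Psmd1 and Psmd2 and the ubiquitin receptor Psmd4 passed in none of the comparisons on the deposited scale. Their log2 fold changes lay between −0.31 and 0.22. Both rescalings called Psmd1 and Psmd2 higher in B2B1 than in B2. Median-of-ratios scaling gave 0.34 (adjusted p = 0.0012) and 0.36 (adjusted p = 0.000719). It also called Psmc5 higher there (0.23, adjusted p = 0.00727). Psmd1 (0.26, adjusted p = 0.0191) and Psmc5 (0.24, adjusted p = 0.0197) were then higher than in B1 too.

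In the lid, Psmd14 had the largest difference of any proteasome gene. Psmd14 is the metalloprotease that removes the ubiquitin chain from substrates as they enter, and lies at chr2:61711694-61800376 on the plus strand of GRCm38. It had 169.7, 166 and 289 TPM in B2B1 libraries, 196, 173 and 158 TPM in B1 libraries, and 64.2, 74.8 and 64.3 TPM in B2 libraries. All peritoneal libraries lay far above all B2 libraries. B2B1 and B1 overlapped, and B2B1 library 3 stood far above the other B2B1 libraries. The log2 fold change was 1.56 ± 0.195 for B2B1 against B2 (limma, adjusted p = 0.000128) and 1.36 ± 0.195 for B1 against B2 (adjusted p = 0.000428). Without B2B1 library 3 the first was 1.30 (adjusted p = 3e-05). B2B1 against B1 gave 0.20 ± 0.195 (adjusted p = 0.499), and −0.06 without that library. Psmd14 has a copy, Gm12096, that matches it at 91.3% over 847 bases, so some reads could be shared.

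The other lid subunits did not follow Psmd14. Its level divided by the median of the other 7 lid subunits was 2.55 ± 0.764 in B2B1, 2.41 ± 0.339 in B1 and 0.863 ± 0.0721 in B2 (SD, n = 3 each). Psmd8, another lid subunit, was the only other lid gene higher in both peritoneal groups. It had 134, 164 and 167 TPM in B2B1 libraries, 131, 137 and 136 TPM in B1 libraries, and 107, 106 and 113 TPM in B2 libraries. B2 lay below both other groups, which overlapped. On the log2 scale the difference was 0.50 ± 0.08 for B2B1 against B2 (limma, adjusted p = 0.000729) and 0.31 ± 0.08 for B1 against B2 (adjusted p = 0.0132). Without B2B1 library 1 and B1 library 2, Psmd8 was also called higher in B2B1 than in B1 (0.31, adjusted p = 0.0129).

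Psmd12 was lower in B2B1 than in B2 (−0.24 ± 0.08, limma, adjusted p = 0.0236) and in B1 than in B2 (−0.24 ± 0.08, adjusted p = 0.0251). Psmd13 was lower in B1 than in B2 (−0.16 ± 0.06, adjusted p = 0.0418). With median-of-ratios scaling Psmd12 gave −0.01 (adjusted p = 0.89) in B2B1 and −0.09 (adjusted p = 0.307) in B1, and Psmd13 gave −0.00273 (adjusted p = 0.971). The Psmd12 calls were also lost without any B2 library, without B2B1 library 2 or 3 in the first and without B1 library 3 in the second. The Psmd13 call was lost without B2B1 library 2 or 3, B1 library 1 or 3 or any B2 library. Psmd3 did not pass in any comparison with all libraries on the deposited scale. Both rescalings called it higher in B2B1 than in B2 (0.36 and adjusted p = 0.0176 with median-of-ratios scaling). Without B2B1 library 1 and B1 library 2 it was called in each comparison. The values were 0.24 for B2B1 against B2 (adjusted p = 0.00519) and 0.43 for B2B1 against B1 (adjusted p = 0.00387). B1 against B2 gave −0.18 (adjusted p = 0.0199). The genes outside the rule for naming were Psma7, Psmc6, Psmd6, Psmd7 and Psmd11. With all libraries on the deposited scale they passed in none of the comparisons, with log2 fold changes between −0.12 and 0.21. Median-of-ratios scaling called each of them higher in B2B1 than in B2 (0.19 to 0.44, adjusted p of 0.00194 to 0.0445). Without B2B1 library 1 and B1 library 2, Psma7 was higher in B2B1 than in B1 (0.32, adjusted p = 0.0136). It was then lower in B1 than in B2 (−0.17, adjusted p = 0.0342). In B2B1 against B1, no lid subunit (of 8) and no regulatory particle gene (of 17) passed with all libraries on the deposited scale. Of all genes, 19.0% did. Without Psmd14, regulatory particle genes summed to 1368 ± 27.6 TPM in B2B1, 1262 ± 65.6 TPM in B1 and 1345 ± 41.7 TPM in B2.

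The activators split by type. Psme1 and Psme2, which form the interferon-inducible activator of the core, were higher in B2B1 than in both other groups, while Psme4, a nuclear activator known for its role in spermatogenesis and histone degradation, was lower. Psme1 had 523, 492 and 534 TPM in B2B1 libraries, 390.1, 442 and 384 TPM in B1 libraries, and 419, 419 and 429.6 TPM in B2 libraries. B2B1 lay above the rest, and B1 and B2 overlapped. The log2 fold change was 0.29 ± 0.06 against B2 (limma, adjusted p = 0.00398) and 0.35 ± 0.06 against B1 (adjusted p = 0.00694).

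Psme2 had 482, 414 and 463 TPM in B2B1 libraries, 264, 307 and 277 TPM in B1 libraries, and 264, 283 and 283 TPM in B2 libraries. The lowest B2B1 library was above the highest of the other groups. Its log2 fold change of 0.71 ± 0.08 against B2 (limma, adjusted p = 5.86e-05) had the smallest adjusted p of the 48 genes, and that against B1 was 0.68 ± 0.08 (adjusted p = 0.000704). B1 against B2 gave 0.03 ± 0.08 (adjusted p = 0.77). Psme2 is uncertain as a single gene, since the copy Psme2b matches its transcript at 99.37% over 794 bases and reads of these 2 genes could be shared. Psme1 and Psme2 summed to 970 ± 55.2 TPM in B2B1, 688 ± 53.3 TPM in B1 and 699 ± 15.0 TPM in B2. The mean of both, divided by the mean of the 7 alpha subunits in the same library, was 3.35 ± 0.157 in B2B1, 2.75 ± 0.120 in B1 and 2.59 ± 0.0881 in B2.

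Psme4 had 26.3, 26.7 and 28.5 TPM in B2B1 libraries, 38.4, 32.3 and 34.0 TPM in B1 libraries, and 34.5, 33.1 and 33.5 TPM in B2 libraries. All B2B1 libraries were below all others. On the log2 scale the difference was −0.35 ± 0.08 against B1 (limma, adjusted p = 0.014), which was lost with only the 2 groups in the fit (adjusted p = 0.0558). Against B2 it was −0.30 ± 0.08 (adjusted p = 0.00674), and this was lost with median-of-ratios scaling (−0.08, adjusted p = 0.391). Psme3, the nuclear activator of the same family as Psme1, averaged 96.5 ± 4.75 TPM in B2B1, 90.6 ± 13.6 TPM in B1 and 107 ± 0.767 TPM in B2 (SD, n = 3 each). It did not pass in any comparison with all libraries. Without B2B1 library 1 and B1 library 2 it was lower in B1 than in B2 (−0.37, adjusted p = 0.00162). The same held for B2B1 against B2 (−0.17, adjusted p = 0.0405). Psmf1, an inhibitor of the core in vitro, averaged 16.0 ± 0.956 TPM in B2B1, 16.3 ± 1.42 TPM in B1 and 17.6 ± 1.13 TPM in B2. Psmf1 did not pass in any comparison.

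**Figure D4:**
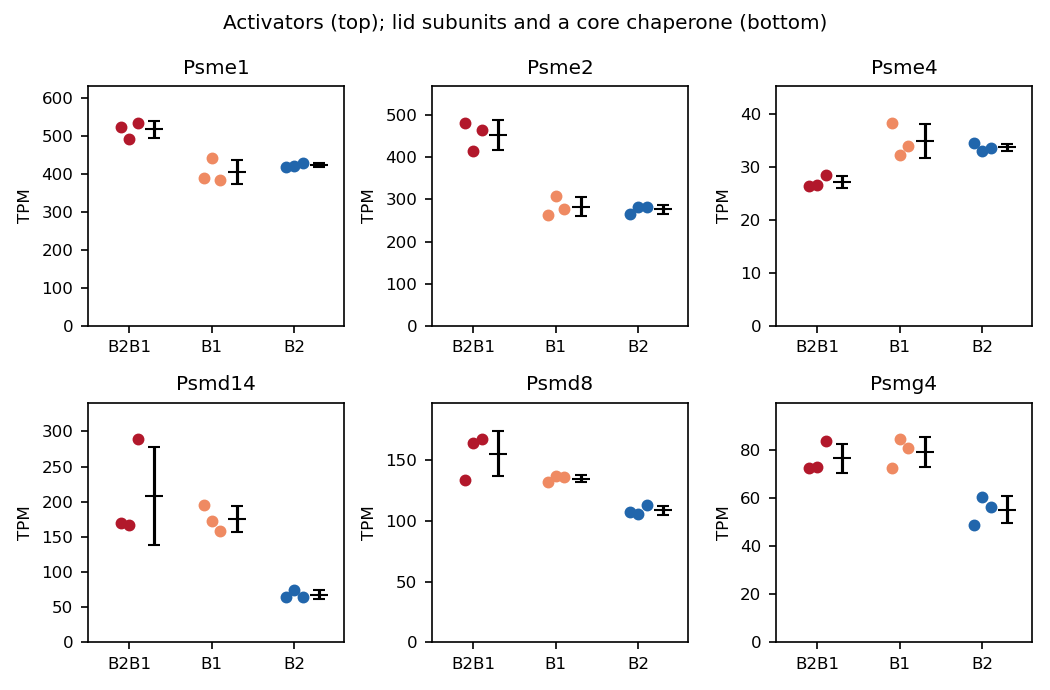
TPM of the activators Psme1, Psme2 and Psme4, the lid subunits Psmd14 and Psmd8 and the chaperone Psmg4 (y axes from 0) in each library of B2B1, B1 and B2, with the mean and SD of 3 libraries. Psme1 and Psme2 are high in B2B1 alone, Psme4 is low there, and Psmd14, Psmd8 and Psmg4 are high in both peritoneal groups.

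Among the chaperones that build the core, Psmg4 was higher in both peritoneal groups. It had 72.7, 73.1 and 83.6 TPM in B2B1 libraries, 72.5, 84.5 and 80.8 TPM in B1 libraries, and 49.0, 60.4 and 56.3 TPM in B2 libraries. B2 lay below the others, which overlapped. The log2 fold change was 0.46 ± 0.10 for B2B1 against B2 (limma, adjusted p = 0.00258) and 0.52 ± 0.10 for B1 against B2 (adjusted p = 0.00193). Psmg1 was higher in B2B1 than in B2 (0.34 ± 0.11, adjusted p = 0.0241), which was lost without B2B1 library 1 or 3 or B2 library 1 or 3 (adjusted p of 0.0577 to 0.0855). Its partner Psmg2 was lower in B2B1 (−0.35 ± 0.11, adjusted p = 0.0193) and in B1 (−0.32 ± 0.11, adjusted p = 0.0341) than in B2. With median-of-ratios scaling the Psmg2 values were −0.13 (adjusted p = 0.3) and −0.17 (adjusted p = 0.205). The first was also lost without B2B1 library 2 or 3 or B2 library 2, and the second without B1 library 1 or 3 or any B2 library. Psmg3 passed in none of the comparisons.

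The chaperones of the base also differed in direction. Psmd10, also called gankyrin, had 39.3, 34.4 and 38.7 TPM in B2B1 libraries, 36.2, 30.0 and 30.6 TPM in B1 libraries, and 27.0, 28.7 and 30.3 TPM in B2 libraries. B2B1 lay above B2 and overlapped B1. Its log2 fold change was 0.38 ± 0.09 for B2B1 against B2 (limma, adjusted p = 0.00596), and 0.16 ± 0.09 for B1 against B2 did not pass (adjusted p = 0.166). Both rescalings called Psmd10 higher in B1 than in B2 (0.31 and adjusted p = 0.0206 with median-of-ratios scaling). Psmd5 was lower in B2B1 (−0.26 ± 0.07, adjusted p = 0.0113) and in B1 (−0.24 ± 0.07, adjusted p = 0.0181) than in B2. With median-of-ratios scaling it gave −0.03 (adjusted p = 0.727) and −0.09 (adjusted p = 0.364), and the second was also lost without B1 library 1 (adjusted p = 0.0539) or B2 library 2 (adjusted p = 0.066). Psmd9 passed in none of the comparisons. Psmc3ip, which is no proteasome gene, averaged 3.54 ± 1.32 TPM in B2B1, 3.10 ± 0.316 TPM in B1 and 5.41 ± 0.385 TPM in B2. It was lower in B2B1 (−0.53 ± 0.19, adjusted p = 0.0312) and in B1 (−0.65 ± 0.19, adjusted p = 0.0169) than in B2, and was lost in the first without B2B1 library 2 or 3 or any B2 library and in the second without B1 library 1 or B2 library 3.

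Genes around the proteasome were described as 4 lists. Regulators of proteasome genes numbered 15, all tested. Of these, 2 were higher and 6 lower in B2B1 than in B2, 1 was higher and 7 lower in B1 than in B2, and 4 were higher and 4 lower in B2B1 than in B1. The shares called higher and lower were 13.3% and 40.0% in B2B1 against B2 (21.0% and 42.0% of all genes), 6.67% and 46.7% in B1 against B2 (18.0% and 33.9%), and 26.7% and 26.7% in B2B1 against B1 (6.93% and 12.1%). The list medians were −0.16, −0.28 and 0.00 on the log2 scale. Nlrc5, the transactivator of MHC class I genes, had 131, 132 and 139.8 TPM in B2B1 libraries, 30.0, 39.6 and 24.7 TPM in B1 libraries, and 43.6, 41.3 and 42.8 TPM in B2 libraries. B2B1 was far above both other groups, with a log2 fold change of 1.63 ± 0.14 against B2 (limma, adjusted p = 1.24e-05) and 2.08 ± 0.14 against B1 (adjusted p = 8.46e-05). B1 was lower than B2 (−0.45 ± 0.14, adjusted p = 0.0226), which was lost with both rescalings and without B1 library 1 or 3 or B2 library 1 or 3 (adjusted p of 0.0563 to 0.082).

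Irf9, the DNA-binding subunit of an interferon-activated factor, had 156, 111 and 139.5 TPM in B2B1 libraries, 82.9, 90.6 and 81.2 TPM in B1 libraries, and 135, 121 and 128 TPM in B2 libraries. B1 lay below both other groups, which overlapped. B2B1 was higher than B1 (log2 fold change 0.65 ± 0.11, limma, adjusted p = 0.00531), and B1 was lower than B2 (−0.59 ± 0.11, adjusted p = 0.00236). B2B1 against B2 gave 0.07 ± 0.11 and did not pass (adjusted p = 0.634), while median-of-ratios scaling called it higher (0.29, adjusted p = 0.0354). Stat2, another subunit of that factor, averaged 54.0 ± 4.35 TPM in B2B1, 50.8 ± 7.82 TPM in B1 and 98.9 ± 2.05 TPM in B2. It was lower in both peritoneal groups than in B2 (−0.86 ± 0.11 in B2B1, adjusted p = 0.000115, and −0.96 ± 0.11 in B1, adjusted p = 8.83e-05).

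Irf8, a B cell and myeloid interferon regulatory factor, averaged 25.5 ± 17.7 TPM in B2B1, 69.2 ± 9.15 TPM in B1 and 329 ± 5.89 TPM in B2. It was lower in B2B1 (−3.94 ± 0.49, limma, adjusted p = 0.000127) and in B1 (−2.24 ± 0.49, adjusted p = 0.00449) than in B2. Nfyc, a subunit of the CCAAT-binding factor NF-Y, was lower in B2B1 than in B2 (−0.56 ± 0.06, adjusted p = 8.44e-05) and than in B1 (−0.33 ± 0.06, adjusted p = 0.00881). Nfe2l1, the factor that induces the subunits of the constitutive proteasome, and Irf1, the factor that induces the immunoproteasome under interferon, were singled out after their values were seen. Nfe2l1 had 93.7, 90.1 and 94.7 TPM in B2B1 libraries, 72.6, 79.3 and 85.3 TPM in B1 libraries, and 71.8, 69.2 and 73.5 TPM in B2 libraries. It was higher in B2B1 than in B2 (0.37 ± 0.07, adjusted p = 0.00113) and than in B1 (0.23 ± 0.07, adjusted p = 0.0424), where leaving out any library but B1 library 3 ended the call (adjusted p of 0.0611 to 0.115). Irf1 had 106, 173 and 206 TPM in B2B1 libraries, 135, 112 and 118 TPM in B1 libraries, and 159, 146 and 172 TPM in B2 libraries. It passed in none of the comparisons. Without B2B1 library 1 it was higher in B2B1 than in B1 (0.64, adjusted p = 0.0102) and lower in B1 than in B2 (−0.38, adjusted p = 0.0132).

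Peptide transport and loading, the steps that follow proteasomal cleavage on the way to MHC class I, were covered by 9 genes. In B2B1 against B1, 4 were higher and 0 lower, against B2 3 were higher and 0 lower, and in B1 against B2 1 was higher and 3 lower. The 44.4% higher in B2B1 than in B1 compares with 6.93% of all genes, and the 33.3% higher in B2B1 than in B2 with 21.0%. In B1 against B2, 11.1% were higher and 33.3% lower, against 18.0% and 33.9% of all genes. The list medians were 0.23, 0.17 and −0.21. Tap1, which pumps peptides into the endoplasmic reticulum, had 223, 206 and 234 TPM in B2B1 libraries, 126, 143 and 112 TPM in B1 libraries, and 234, 234 and 239 TPM in B2 libraries. B1 lay below the others, with a log2 fold change of 0.80 ± 0.09 for B2B1 against B1 (limma, adjusted p = 0.000586) and −0.90 ± 0.09 for B1 against B2 (adjusted p = 4.23e-05). B2m, the light chain of MHC class I, had 7599, 5729 and 6049 TPM in B2B1 libraries, 3194, 3410.3 and 3165 TPM in B1 libraries, and 3863, 3621 and 3723 TPM in B2 libraries. B2B1 was above both, by 0.98 ± 0.10 against B1 (adjusted p = 0.000474) and 0.78 ± 0.10 against B2 (adjusted p = 0.000164). Tap2 (0.42 ± 0.08, adjusted p = 0.00634) and Tapbp, which bridges the transporter and MHC class I (0.38 ± 0.06, adjusted p = 0.00389), were the other 2 higher in B2B1 than in B1. Pdia3, a disulfide isomerase of the loading complex, was higher in B2B1 (0.68 ± 0.15, adjusted p = 0.00369) and in B1 (0.50 ± 0.15, adjusted p = 0.0205) than in B2, and the second was lost without B1 library 2 or B2 library 2.

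**Figure D5:**
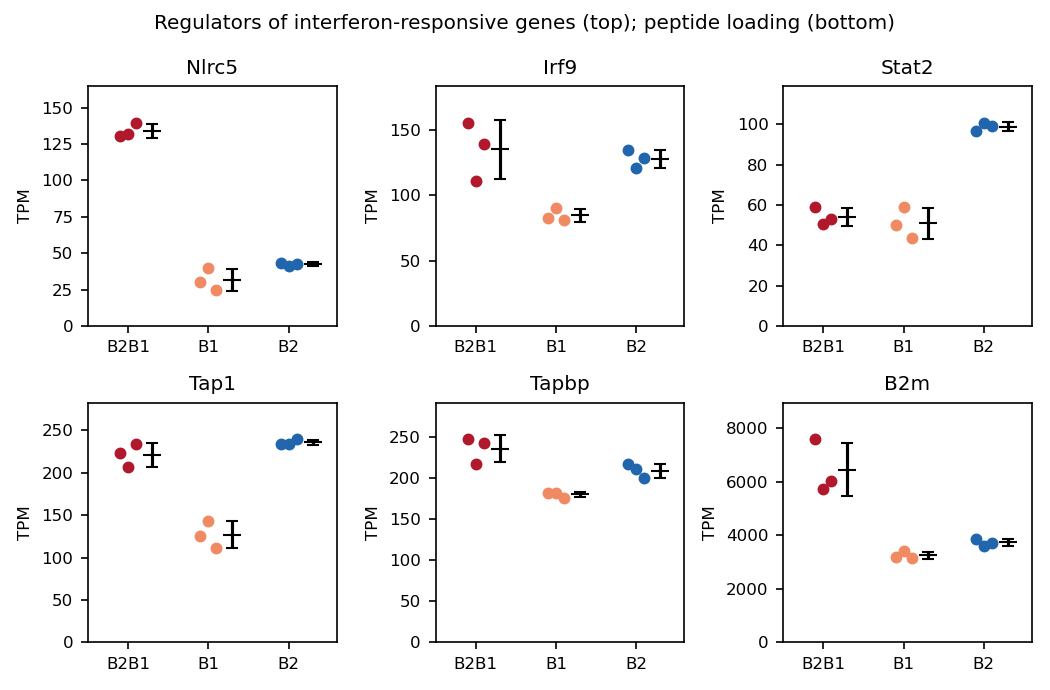
TPM of the regulators Nlrc5, Irf9 and Stat2 and of the peptide loading genes Tap1, Tapbp and B2m (y axes from 0) in each library of B2B1, B1 and B2, with the mean and SD of 3 libraries. Nlrc5 and B2m are highest in B2B1, Irf9 and Tap1 are lowest in B1 and overlap between B2B1 and B2, and Stat2 is highest in B2.

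Proteins that bind or import the proteasome formed the third list. Of 15 tested genes, from 19 listed, 3 were higher and 9 lower in B2B1 than in B2, 1 was higher and 6 lower in B1 than in B2, and 1 was higher and 2 lower in B2B1 than in B1, with medians of −0.28, −0.19 and −0.04. The shares higher and lower were 20.0% and 60.0% in B2B1 against B2 (21.0% and 42.0% of all genes), 6.67% and 40.0% in B1 against B2 (18.0% and 33.9%), and 6.67% and 13.3% in B2B1 against B1 (6.93% and 12.1%). Midn, which carries nuclear proteins to the proteasome without ubiquitin, had 11.1, 13.8 and 18.3 TPM in B2B1 libraries, 12.7, 15.1 and 13.4 TPM in B1 libraries, and 39.3, 34.7 and 37.5 TPM in B2 libraries. Both peritoneal groups lay far below B2, with a log2 fold change of −1.34 ± 0.15 for B2B1 (limma, adjusted p = 8.12e-05) and −1.38 ± 0.15 for B1 (adjusted p = 9.83e-05). Fbxo7, a partner of Psmf1, averaged 17.6 ± 1.05 TPM in B2B1, 25.2 ± 1.60 TPM in B1 and 30.8 ± 1.94 TPM in B2. It was lower in B2B1 than in B2 (−0.77 ± 0.08, adjusted p = 4.27e-05) and than in B1 (−0.49 ± 0.08, adjusted p = 0.00397). The ubiquitin receptor Adrm1 was lower in B2B1 (−0.44 ± 0.08, adjusted p = 0.00161) and in B1 (−0.40 ± 0.08, adjusted p = 0.00364) than in B2, and with median-of-ratios scaling the first became −0.21 (adjusted p = 0.0535). Akirin2, which takes part in nuclear import of proteasomes, was lower in B2B1 than in B2 (−0.53 ± 0.08, adjusted p = 0.000451). AI314180, the mouse symbol of the adaptor Ecm29, was higher in B2B1 (0.23 ± 0.06, adjusted p = 0.00824) and in B1 (0.33 ± 0.06, adjusted p = 0.00165) than in B2. Pomp, the maturation factor of the core, was higher in B2B1 than in B1 (0.31 ± 0.09, adjusted p = 0.0362), a call that most alternatives ended (adjusted p up to 0.103).

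Of 16 tested genes, from 18 listed, for ubiquitin and its delivery, 3 were higher and 4 lower in B2B1 than in B2, and 2 were higher and 3 lower in B1 than in B2. None passed in B2B1 against B1. In B2B1 against B2, 18.8% were higher and 25.0% lower, against 21.0% and 42.0% of all genes, and in B1 against B2 12.5% and 18.8%, against 18.0% and 33.9%. The medians were −0.06, −0.07 and 0.00. Rps27a, which encodes ubiquitin fused to a ribosomal protein, was higher in B2B1 (0.40 ± 0.06, limma, adjusted p = 0.000505) and in B1 (0.30 ± 0.06, adjusted p = 0.00359) than in B2. Vcp, the ATPase that extracts ubiquitylated proteins from complexes and membranes, averaged 186 ± 3.78 TPM in B2B1, 165 ± 13.1 TPM in B1 and 154 ± 3.99 TPM in B2, and was higher in B2B1 than in B2 (0.27 ± 0.06, adjusted p = 0.00475). Ubqln1, a shuttle between ubiquitin and the proteasome, was lower in B2B1 (−0.68 ± 0.10, adjusted p = 0.000308) and in B1 (−0.57 ± 0.10, adjusted p = 0.00115) than in B2.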

How the data were processed

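The libraries were made from polyA RNA. Expression values are TPM (length-normalised transcript abundance, scaled to a fixed total) per gene as deposited by the authors. Per the submitters' processing notes, CASAVA 1.8.2, kallisto and mm10 were used. For kallisto the version, and for counting the use of strand, were not given in the sources used here. TPM keeps no read depth, so depth is unknown. Per library, listed genes added up to 894515 to 943043 TPM. No pair of libraries was identical.

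Tests used limma 3.58.1 in R 4.3.3, with a mean-variance trend, on log2(TPM + 1), and covered 11099 genes whose mean reached 1 TPM. One model covered all 9 libraries. P-values were adjusted by Benjamini-Hochberg within each comparison over all tested genes, and 0.05 was the threshold. Fold changes are on that scale, which understates those of low genes. The method was tested on simulated data, where 5.88% to 7.04% of calls were false. It recovered 10% of 1.2-fold changes, 64% to 66% of 1.5-fold changes and 86% to 88% of 2-fold changes. In the simulation 50 of 11099 genes were changed at each fold, a far smaller share than was called in the data. Recovery in the data may therefore differ from these rates. A small difference that did not pass is still not shown to be absent. Alternatives were other pseudocounts (0.1 and 0.5), filters (none, and 5 TPM), scalings, fits of 2 groups, library weights, a replicate block and left-out libraries. Copies were searched with blastn 2.17.0. Of the 49 genes, 20 matched another gene over at least 200 bases at 90% identity or more. Among them were Psma4 (Gm6542, 96.8% over 783 bases) and Psme1 (Gm7776, 90.3% over 750 bases). Not all such matches are named in the text.

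Members and lists were chosen with earlier results of these data known. Text names all catalytic subunits, activators and Psmf1, Psma8, the members of each class with the smallest adjusted p, those that passed in only 1 comparison with B2, and the list genes with the smallest adjusted p. Nfe2l1 and Irf1 were added after their values were seen. Libraries were not paired by replicate number in the main model. A deposited signature table was not used here. Some genes of these lists are not reported here.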

Additional observations from a re-analysis of the deposited data

How the results depend on the processing

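Counts of proteasome genes called changed with scaling and with the libraries used. In B2B1 against B2, 21 were called (14 higher, 7 lower). Median-of-ratios scaling gave 29 higher and 0 lower, and quantile normalization 24 higher and 1 lower. Of all genes, 31.5% were higher and 27.3% lower with the first, and 26.8% and 31.9% with the second. In B1 against B2, 18 were called (4 higher, 14 lower). Median-of-ratios scaling called 9 (8 higher, 1 lower), and quantile normalization called 9 with 3 lower. Of all genes, 25.6% were higher and 22.2% lower with the first, and 22.3% and 25.8% with the second. In B2B1 against B1, 10 were called (9 higher, 1 lower). Median-of-ratios scaling called 16 (15 higher), and a fit of only these 2 groups called 5, of which 5 were higher and 0 lower. With that scaling 9.79% of all genes were higher and 8.05% lower. Leaving out 1 library at a time gave 15 to 23 calls in B2B1 against B2 (11 to 15 higher, 3 to 8 lower), 10 to 22 in B1 against B2 (4 higher each time, 6 to 18 lower) and 8 to 18 in B2B1 against B1 (7 to 17 higher, 1 lower each time). The lowest count in B1 against B2 came without B2 library 3, and the highest in B2B1 against B1 without B1 library 2. For fits of 2 groups, left-out libraries and the replicate block, the shares of all genes are not given here. With median-of-ratios scaling Psmb6 in B2B1 against B2 changed sign to 0.00113 (adjusted p = 0.99) and Psmc2 to 0.19 (adjusted p = 0.0117), against −0.04 on the deposited scale. By construction the immunoproteasome share does not depend on a scaling factor per library, and it was not computed after quantile normalization. Leaving out single libraries, or B2B1 library 1 and B1 library 2, cannot decide whether the share is stable. Without 1 of its 3 libraries, a group mean cannot move by 1 SD. With Psmb11 added, the share averaged 74.7% in B2B1, 68.3% in B1 and 69.5% in B2. Each lay less than 1 SD from the share without Psmb11. With the replicate block, 18 genes were called in B2B1 against B2, 16 in B1 against B2 and 8 in B2B1 against B1. Deviations from the group mean correlated at −0.06 to 0.12 between libraries of the same number. Between libraries of different numbers this was −0.21 to 0.13. So few libraries cannot settle whether the numbers mark pairs. Unknown depth limits what can be said of low genes such as Psmb11 and Psma8.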
